A study of Mus musculus with 6 samples.

Results

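The Wnt genes described here are the 49 mouse genes whose symbol is Wnt, Fzd, Sfrp or Dkk with a number, together with Lrp5, Lrp6, Axin1, Axin2, Lef1, Tcf7, Tcf7l1, Tcf7l2, Rnf43, Znrf3, Ctnnb1 and Apc. They were found by matching the transcript accession of each array probe to a gene symbol, and they carried 67 of the 56605 non-control probes and made up 49 of the 22907 genes that could be named. Of the 49, 34 had 1 probe and 15 had several. RNA came from a mouse glioblastoma stem cell line, established as neurospheres from brain tumours that the SB transposon had induced, and kept without serum in neural stem cell medium with EGF and bFGF. 3 arrays held stable knockdown cells transduced with a lentiviral shRNA against Ggct, and 3 held control cells transduced with a lentiviral non-target shRNA. Ggct encodes gamma-glutamylcyclotransferase, an enzyme of glutathione breakdown, and the design asks what its suppression does to gene expression. All the samples are of 1 line, and the knockdown titles name 1 hairpin (mGGCTsh3). Each knockdown array shares the day in its title with 1 control array, which gives 3 pairs. The labels do not say whether the arrays of a group came from separate cultures beyond those days, so the p-values reflect the spread among these arrays only, which may in part be technical.

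Wnt proteins are secreted, lipid-modified ligands that bind Frizzled receptors, encoded by the Fzd genes, together with the co-receptors Lrp5 and Lrp6. Without a signal, a complex built on Axin and Apc marks β-catenin, the product of Ctnnb1, for destruction. When a Wnt binds, β-catenin accumulates and activates genes with the Tcf and Lef factors, Axin2 among them, and some ligands such as Wnt5a act mainly without β-catenin. Sfrp and Dkk proteins are secreted modulators, which bind Wnts or Lrp5 and Lrp6, and Rnf43 and Znrf3 are ubiquitin ligases that remove Frizzled from the cell surface. In the nervous system the pathway is known for patterning the embryonic brain and for its part in the renewal of neural stem cells.

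Of the 28 Wnt genes that could be tested, 2 passed (7.14%), a share close to the 7.41% of all genes. They were Dkk2, a modulator gene, and Wnt2, a ligand gene, and both were lower in the knockdown. Wnt2 entered the test through its control arrays alone, so its call depends on the filter. Sfrp4, Wnt5b and Fzd2 were higher on every knockdown array than on any control array but did not pass. Tcf7 and Axin1 were lower on every knockdown array and did not pass either, and a second Tcf7 probe overlapped between the groups. Such separation was seen for 25.0% of the tested Wnt genes and 32.4% of all genes. Axin2, the feedback target, had group means 0.03 apart on the log2 scale. The arrays measured RNA levels and not transcription itself. The windows around the start sites of 3 of the genes that the results turn on are shown. That of Dkk1 is set beside them as a window that holds the searched motif at 2 places. All the windows are RefSeq sequences of build GRCm38.p6 and run from 250 bases before to 50 bases after an annotated start, 5′ to 3′ on the gene's strand. Capitals mark TCAAAG or its reverse complement CTTTGA, letters shared by many Tcf and Lef sites; the 2 do not overlap in these windows.
Wnt2: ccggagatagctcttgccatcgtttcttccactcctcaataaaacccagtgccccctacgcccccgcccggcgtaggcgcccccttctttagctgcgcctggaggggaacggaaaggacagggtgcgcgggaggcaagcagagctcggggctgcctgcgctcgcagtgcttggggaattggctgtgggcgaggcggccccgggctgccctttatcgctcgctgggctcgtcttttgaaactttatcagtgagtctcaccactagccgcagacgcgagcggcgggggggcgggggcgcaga
Dkk2: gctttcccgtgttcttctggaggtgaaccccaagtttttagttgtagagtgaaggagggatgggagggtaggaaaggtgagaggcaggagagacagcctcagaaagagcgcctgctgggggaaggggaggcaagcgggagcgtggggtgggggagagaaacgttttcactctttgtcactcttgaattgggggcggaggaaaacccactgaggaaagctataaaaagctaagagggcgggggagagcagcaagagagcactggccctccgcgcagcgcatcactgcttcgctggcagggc
Wnt5b: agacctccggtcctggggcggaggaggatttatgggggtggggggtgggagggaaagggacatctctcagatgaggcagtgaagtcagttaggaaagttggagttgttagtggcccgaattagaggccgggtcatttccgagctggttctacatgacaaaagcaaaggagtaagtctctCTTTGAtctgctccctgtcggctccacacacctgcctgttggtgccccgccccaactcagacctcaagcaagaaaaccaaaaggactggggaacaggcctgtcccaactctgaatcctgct
Dkk1: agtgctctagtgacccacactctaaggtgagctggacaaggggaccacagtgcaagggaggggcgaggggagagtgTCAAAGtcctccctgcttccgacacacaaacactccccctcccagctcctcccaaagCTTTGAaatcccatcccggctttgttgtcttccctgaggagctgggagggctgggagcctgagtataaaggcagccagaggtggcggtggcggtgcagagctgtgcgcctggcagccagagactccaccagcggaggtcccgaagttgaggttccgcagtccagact
The windows lie on the minus strand at chr6:18030396-18030695 for Wnt2, chr6:119449337-119449636 for Wnt5b and chr19:30549447-30549746 for Dkk1, and on the plus strand at chr3:132085042-132085341 for Dkk2. The motif was in neither the Wnt2 nor the Dkk2 window. It was in 1 of 3 Wnt5b windows, 71 bases before that start, and in the Dkk1 window 174 and 117 bases before the start. Of the 49 genes, 32 had a window, and 5 of their 42 windows (11.9%) held the motif, against 5257 of the 32851 windows of all genes in the table (16.0%). A match is a run of letters and no evidence of binding.

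Between 54.5% and 56.8% of the probes of an array were called well above background, a call the scanner software makes for each spot, and 0 spots were saturated. All 6 arrays lay on 1 slide with 1 scan date. Signals are given as log2 of the background-corrected intensity less that array's 75th percentile, and the level of one probe is not comparable with that of another. Knockdown replicate 1 stood apart from the rest, with a score of 46.6 on principal component 1, where the other knockdown arrays had 9.1 and 15.4 and the controls lay between -30.5 and -15.0. Ggct itself had signals of 0.22, 0.91 and 0.70 on the knockdown arrays, against 3.32, 3.72 and 3.70 on the control arrays, and so was at 12.7% of control (log2 fold change -2.97 ± 0.20, SE; limma adjusted p = 0.00314). Over all genes 1048 of 14151 passed an adjusted p below 0.05, and 558 passed with the pair as a replicate block.

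About as large a share of the Wnt genes as of all genes could be measured. A gene was tested where 3 or more of the 6 arrays had its probe well above background, which held for 28 of the 49 (57.1%) and for 61.8% of all named genes. The roles differed. All 4 genes of β-catenin and its complex, all 4 Tcf and Lef genes and 11 of 12 receptor genes were tested, but only 6 of 19 ligand genes and 2 of 8 modulator genes. The tested ligands were Wnt1, Wnt2, Wnt5a, Wnt5b, Wnt7b and Wnt9a. Of the 21 genes that were not tested, 18 were not well above background on any array, with any probe: Wnt2b, Wnt3, Wnt3a, Wnt4, Wnt7a, Wnt8a, Wnt8b, Wnt9b, Wnt10a, Wnt10b, Wnt16, Fzd10, Dkk1, Dkk4, Sfrp1, Sfrp2, Sfrp5 and Rnf43. The other 3 reached background on 2 arrays each with the probe analysed. Wnt6 and Wnt11 did so on 1 knockdown and 1 control array, and a second Wnt11 probe did so on 1 further knockdown array. Dkk3, which encodes a divergent member of the Dickkopf family, did so on 2 knockdown arrays and 0 control arrays. Its signals were -4.87, -5.40 and -5.23 in the knockdown, against -6.07, -5.74 and -6.07 in the control. The knockdown signals were near the lowest signal that counts as above background, and the control signals were below it. A second Dkk3 probe was above background on no array, with means of -7.62 in the knockdown and -7.58 in the control. Without a filter, when all 49 were fitted, 0 passed in limma and 7 had an unadjusted p below 0.05. In that fit 357 of all 22907 genes (1.56%) passed, and 3516 had an unadjusted limma p below 0.05.

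**Figure D1:**
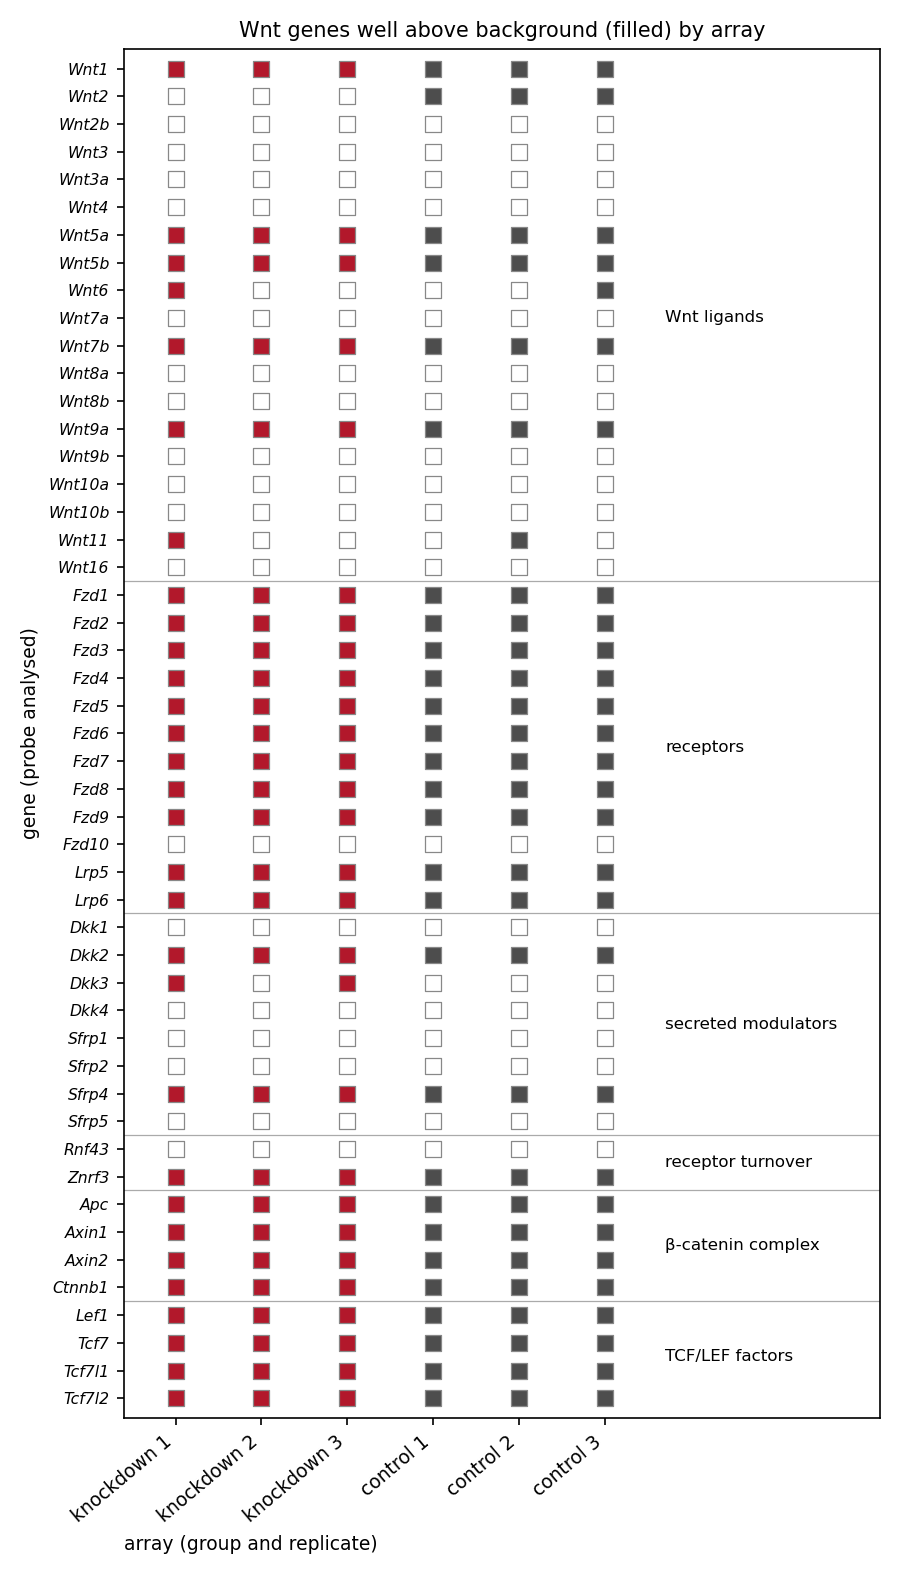
Each square is 1 gene (rows, by role) on 1 array (columns, 3 knockdown then 3 control), filled where the probe analysed was well above background. Receptors and intracellular genes are filled nearly throughout, and of the 49 genes 28 reached at least 3 arrays; Wnt2 is filled on the 3 control arrays alone.

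Of the 28 tested Wnt genes, 2 passed the threshold, 0 higher and 2 lower, and 26 did not pass. That is 7.14%, and over all genes 7.41% passed, 4.57% higher and 2.84% lower. The median log2 fold change of the 28 was -0.042, also with Wnt2 at its bound, and that of all genes was 0.016. For 7 of the 28 (25.0%) the 3 knockdown and the 3 control signals did not overlap, 3 higher and 4 lower, which compares with 32.4% of all genes. The same direction in all 3 pairs was seen for 13 of 28 (46.4%), and for 48.7% of all genes. An unadjusted p below 0.05 was found for 6 of 28 (21.4%), and for 24.8% of all genes. With the pairs as a replicate block 3 of the 28 passed, Dkk2, Wnt2 and Wnt5b, where 3.94% of all genes did. Wnt2 was above background on control arrays only, so it entered these counts through the group in which it is higher, and the counts lend no support to a direction. With a filter on all 6 arrays, which removes Wnt2, 1 of 27 passed (3.70%), Dkk2, and 7.82% of all genes did. The data do set limits: for 21 of the 28 genes the 95% interval of the fold change lay within 2-fold in either direction.

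**Figure D2:**
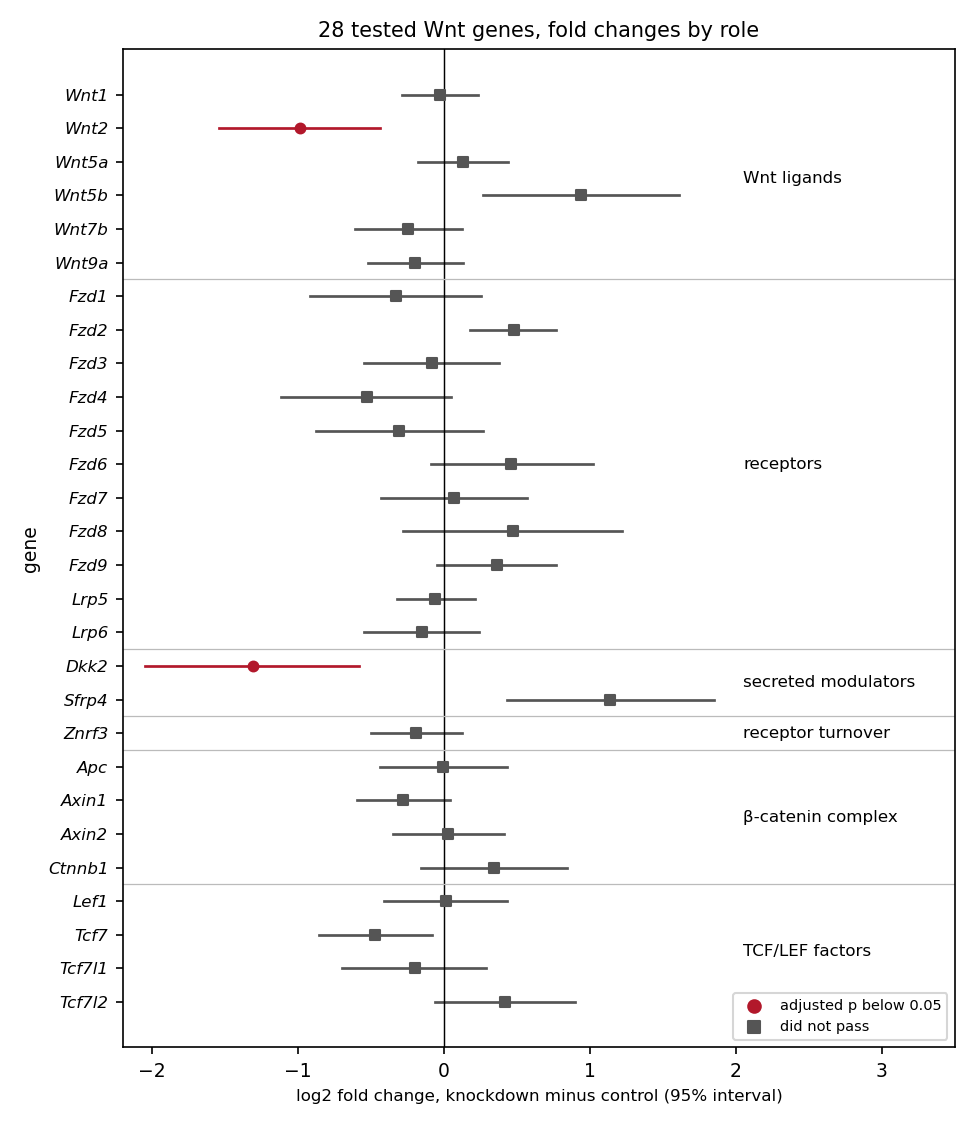
Log2 fold change (knockdown minus control, horizontal axis) with its 95% interval for the 28 tested Wnt genes, grouped by role. Wnt2 (-0.99) and Dkk2 (-1.31) are the 2 that passed, and the receptor genes lie between -0.53 and 0.48.

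Among the ligands, Wnt2 fell and Wnt5b was higher without passing. Wnt2 encodes a ligand that usually signals through β-catenin. Its signals were -5.44, -5.58 and -6.20 in the knockdown, against -4.72, -4.47 and -5.07 in the control. The groups did not overlap, and the probe cleared background on each of the 3 control arrays but on no knockdown array, so that its fold has only a bound of at least 1.5-fold lower (fitted log2 fold change -0.99 ± 0.24, SE; 95% interval -1.54 to -0.44; adjusted p = 0.0481 in limma and 0.0366 in the blocked fit). The lowest signals that count as above background ran from -5.50 to -5.26 on the knockdown arrays and from -5.62 to -5.05 on the control arrays, so Wnt2 was a dim probe in both groups. With normexp its log2 fold change was -0.16 (adjusted p = 0.289), and it also lost the call without knockdown replicate 2 or 3 or any 1 control array (adjusted p from 0.0617 to 0.161). The call was lost as well with quantile normalization, with a percentile over the probes detected on every array, without a filter and without any pair.

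Wnt5b, which encodes a ligand known mainly for signalling without β-catenin, had signals of 0.85, -0.05 and -0.23 in the knockdown, against -0.45, -0.84 and -0.96 in the control. Every knockdown array was above every control array, with knockdown replicate 1 the highest. The log2 fold change was 0.94 ± 0.29 (SE), or 1.92-fold, with a 95% interval from 0.27 to 1.61, and the adjusted p was 0.0927. With the replicate block Wnt5b passed (adjusted p = 0.0466). Its second probe, of another transcript, gave 0.95 ± 0.30 (SE) in a fit across all probes. Without knockdown replicate 1 the value was 0.61 (adjusted p = 0.0918).

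The other ligands did not pass. Wnt7b, which in the developing brain acts on blood vessels and neurons, was at -0.25 (95% interval -0.61 to 0.12), with -0.23 for its second probe. Wnt9a was at -0.20 (-0.52 to 0.13), Wnt5a at 0.13 (-0.18 to 0.44) and Wnt1, a ligand of midbrain patterning, at -0.03 (-0.29 to 0.23). For Wnt1 and Wnt5a the intervals leave room for less than a 1.5-fold change either way. Wnt1 signals were -1.48, -1.32 and -1.36 in the knockdown, against -1.31, -1.38 and -1.40 in the control, which overlap throughout.

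None of the 11 tested receptor genes passed in limma, and 1, Fzd2, had an unadjusted p below 0.05. The Frizzled receptor gene Fzd2 had signals of 2.47, 2.47 and 2.38 in the knockdown, against 1.78, 2.01 and 2.10 in the control. The knockdown arrays were close together and all above the controls. Its log2 fold change was 0.48 ± 0.13 (SE; 95% interval 0.18 to 0.77), or 1.39-fold, and the adjusted p was 0.0654, or 0.118 in the blocked fit. Fzd2 passed under other scalings, with an adjusted p of 0.0406 after quantile normalization, 0.0392 with a percentile taken over the probes detected on every array and 0.0226 with normexp. It did not pass in limma with any 1 array or pair left out (adjusted p from 0.08 to 0.376) or without a filter (0.165).

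The remaining Frizzled genes lay on both sides of 0 and overlapped between the groups. Fzd4, whose product is also the receptor for Norrin in blood vessels, was at -0.53 (95% interval -1.12 to 0.05), Fzd1 at -0.33 and Fzd5 at -0.31. Fzd8 was at 0.47, Fzd6, a receptor of planar cell polarity, at 0.46, Fzd9 at 0.36, Fzd7 at 0.07 and Fzd3, a receptor of axon guidance, at -0.08. The second Fzd5 probe had 0.11 ± 0.34 (SE), so its probes differed in sign. Of the co-receptor genes, Lrp5 was at -0.06 (-0.32 to 0.21) and Lrp6 at -0.15 (-0.55 to 0.24). The second Lrp6 probe was at -0.26.

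Of the 2 tested modulator genes, Dkk2 fell and Sfrp4 did not pass. Dkk2 encodes a ligand of Lrp5 and Lrp6 that can inhibit or weakly activate the pathway, depending on the cell. Its signals were -1.15, 0.09 and -0.02 in the knockdown, against 0.73, 1.13 and 1.0 in the control. The groups did not overlap, and knockdown replicate 1 was the lowest array. Dkk2 fell to 40.2% of control, a log2 fold change of -1.31 ± 0.32 (SE; 95% interval -2.05 to -0.58; adjusted p = 0.0490 in limma and 0.0416 in the blocked fit), and the pairs differed by -1.88, -1.04 and -1.02. The fall was smaller without knockdown replicate 1, at -0.92, and still passed (adjusted p = 0.0196). It did not pass without knockdown replicate 3 or any 1 control array (adjusted p from 0.09 to 0.159). Without pair 2 or 3 Dkk2 did not pass either (0.133 and 0.172). Its adjusted p was 0.0599 with quantile normalization and 0.0578 with a percentile over the probes detected on every array. It was 0.102 without a filter and 0.0509 with the mean of probes. In the fit across all 31804 probes it was 0.0957, and 0 of 41 tested probes of these genes passed, where 1.75% of all probes did.

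Sfrp4 encodes a secreted protein with a Frizzled-like domain that binds Wnts. Its signals were -1.89, -2.94 and -3.06 in the knockdown, against -4.03, -3.59 and -3.70 in the control. Knockdown replicate 1 was far above the other arrays, and the other 2 knockdown arrays were still above every control. The log2 fold change was 1.14 ± 0.30 (SE; 95% interval 0.43 to 1.85), or 2.21-fold, with an adjusted p of 0.0658, or 0.119 with the replicate block. Without knockdown replicate 1 it was 0.77, with a smaller spread, and passed (adjusted p = 0.0383). Dkk2 and Sfrp4 were the 2 of the 28 genes with a fitted difference of at least 2-fold, which 3.23% of all genes had.

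**Figure D3:**
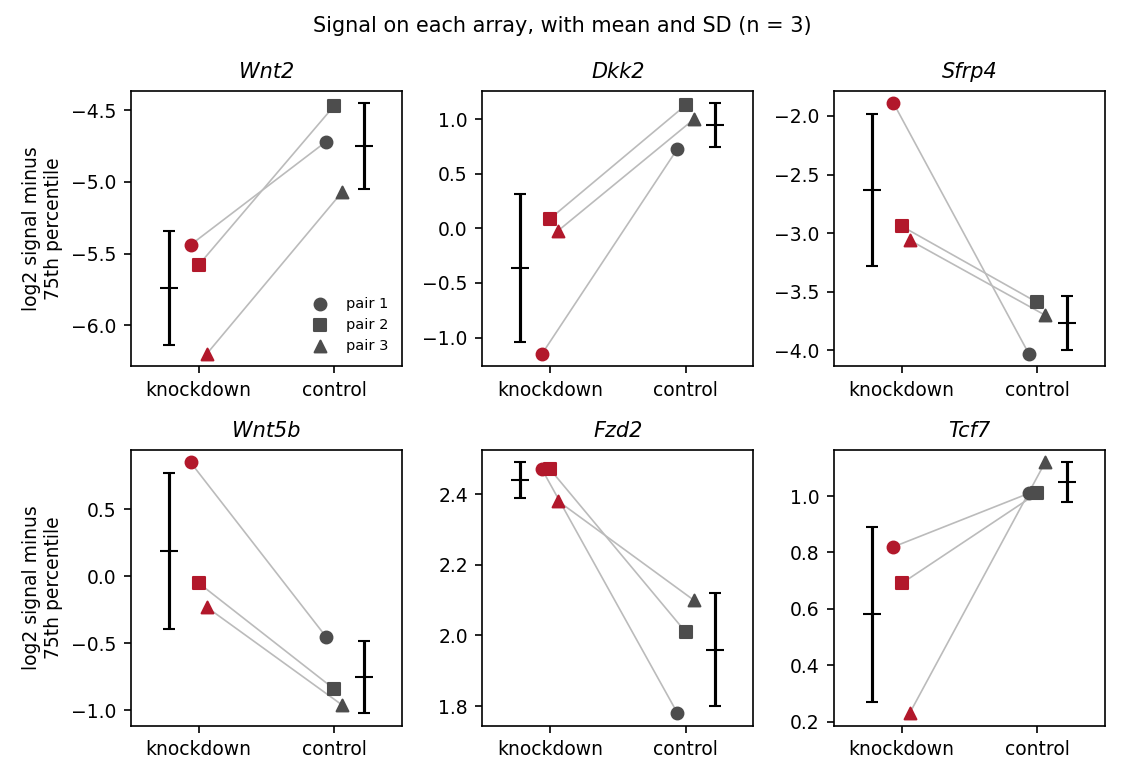
Normalised log2 signal (vertical axes, each panel with its own range) of 6 Wnt genes on each knockdown (red, left) and control (grey, right) array; lines join the pairs of 1 day and bars give mean and SD (n = 3). The 6 are drawn from the 7 of 28 tested Wnt genes (25.0%) whose groups do not overlap, so all panels show separate groups. Over all genes that share was 32.4%. Knockdown replicate 1 (circle) lies farthest from the controls for Dkk2, Sfrp4 and Wnt5b.

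**Figure D4:**
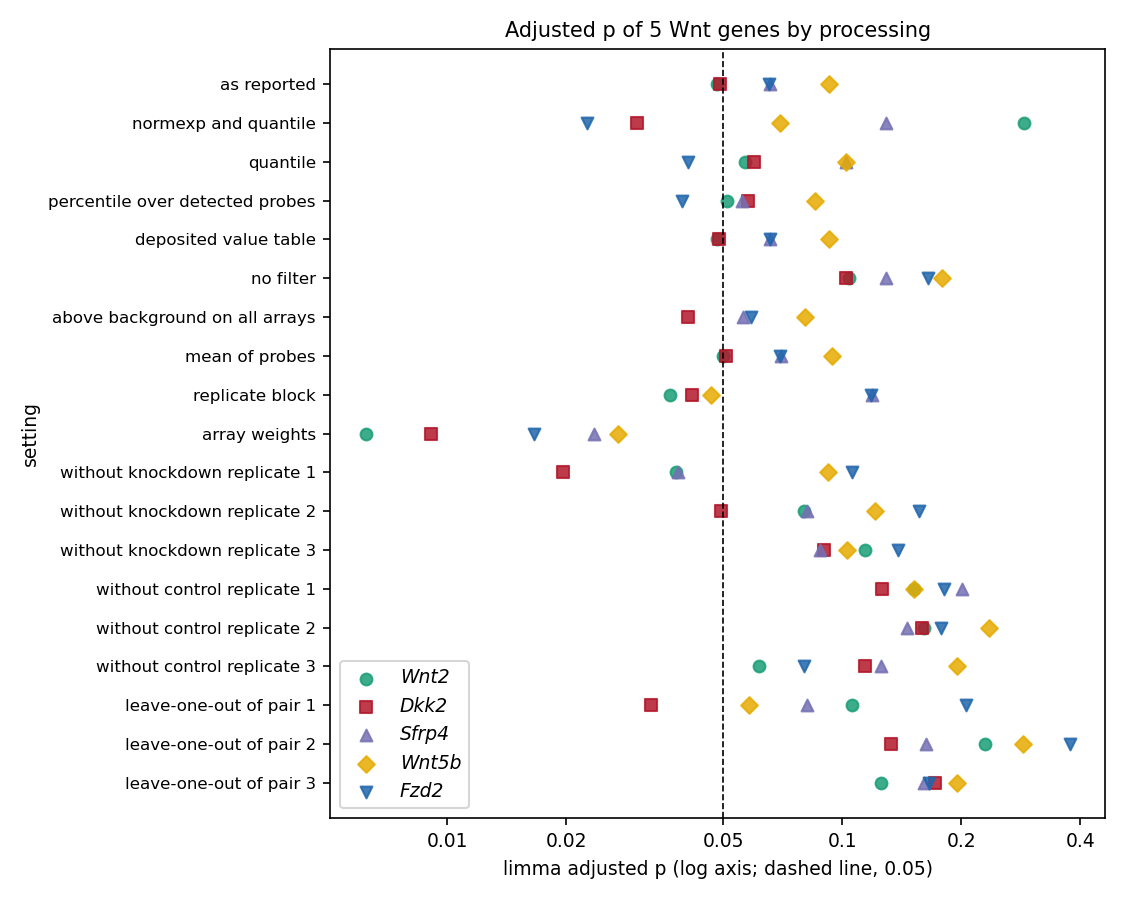
Limma adjusted p (horizontal, log axis) of 5 Wnt genes as reported and under 18 other settings (rows); the dashed line is the threshold of 0.05. Wnt2 and Dkk2 sit just under the line as reported (0.0481 and 0.0490) and on both sides of it under the other settings, and Sfrp4, Wnt5b and Fzd2 cross it under some.

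Of the 4 intracellular genes, 0 passed in limma, with 0 at an unadjusted p below 0.05. Ctnnb1, which encodes β-catenin, had signals of 4.50, 4.10 and 4.13 in the knockdown, against 3.65, 3.70 and 4.35 in the control. The groups overlapped through control replicate 3, and the log2 fold change was 0.34 (95% interval -0.16 to 0.84), with 0.35 for the second probe. The probes did not follow the same pattern over the arrays. Their pairs differed by 0.85, 0.40 and -0.22 with this probe and by -0.29, 0.21 and 1.12 with the second. Axin1, the scaffold of the destruction complex, was at 2.81, 2.59 and 2.46 in the knockdown, against 2.85, 2.83 and 3.02 in the control. Its groups were separate by a small margin, and the log2 fold change was -0.28 with both probes (adjusted p = 0.253). Apc, the tumour suppressor of the same complex, was at -0.01 (-0.44 to 0.43).

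Axin2 is both a member of the complex and a standard read-out of β-catenin signalling. Its signals were -1.42, -1.81 and -1.43 in the knockdown, against -1.79, -1.58 and -1.38 in the control. They overlap throughout, and the log2 fold change was 0.03 with a 95% interval from -0.35 to 0.41. A second Axin2 probe was above background on no array. Znrf3, the tested one of the 2 turnover genes, was at -0.19 (-0.50 to 0.12), and its other probes were at 0.15 and 0.03.

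Of the 4 Tcf and Lef genes none passed in limma, and 1 had an unadjusted p below 0.05. Tcf7, which encodes TCF1, had signals of 0.82, 0.69 and 0.23 in the knockdown, against 1.01, 1.01 and 1.12 in the control. The groups did not overlap, with knockdown replicate 3 the lowest. The difference was -0.47 ± 0.17 on the log2 scale (SE; adjusted p = 0.135). The second Tcf7 probe had -0.25, and its groups overlapped, with pairs that differed by 0.19, -0.11 and -0.82. Tcf7l2, which encodes TCF4, was at 0.42 (95% interval -0.06 to 0.90). Its other probes, which match several transcripts of the gene, had 0.08, 0.11 and 0.12. Tcf7l1, whose product acts mostly as a repressor, was at -0.20 (-0.70 to 0.29), and Lef1 was at 0.01 (-0.41 to 0.43).

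Other genes of the pathway were taken from a list of 80 that holds no gene described so far, of which 60 were tested. 2 rose, 1 fell and 57 did not pass, or 5.0% past the threshold where 7.41% of all genes passed it, and their median was -0.03. Tle6, a Groucho-family gene related to the co-repressors of Tcf factors, rose 2.14-fold. Its signals were 4.83, 4.26 and 4.43 in the knockdown, against 3.38, 3.25 and 3.59 in the control, with no overlap (log2 fold change 1.1 ± 0.18, SE; adjusted p = 0.0171 in limma and 0.0367 in the blocked fit). Tle6 did not pass without knockdown replicate 3, control replicate 1 or control replicate 2 (0.0648 to 0.0764). Dact2, which encodes a Dishevelled-binding protein, rose 1.59-fold (adjusted p = 0.0446, but 0.0838 in the blocked fit). Its signals were -0.28, -0.46 and -0.68 in the knockdown, against -1.29, -0.94 and -1.18 in the control, without overlap. Apcdd1, which encodes a membrane inhibitor of Wnt signalling, fell to 60.7% of control (adjusted p = 0.0498, or 0.0427 with the replicate block). Its signals were -3.49, -3.37 and -3.09 in the knockdown, against -2.80, -2.70 and -2.30 in the control, again without overlap. Dact2 and Apcdd1 lost the call when any 1 array was left out, with adjusted p-values from 0.0765 to 0.147 and from 0.0844 to 0.132. The genes needed to release a Wnt were measured on all arrays and did not pass. Wls, the carrier of Wnts to the cell surface, was at 0.55 (95% interval 0.05 to 1.04) and Porcn, which acylates Wnts, at 0.17. The 4 R-spondin genes, Rspo1 to Rspo4, and their receptor gene Lgr5 were above background on no array.

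Genes known as direct targets of β-catenin and Tcf in other tissues were listed as well, 24 in all. Of the 17 tested, 1 rose, 1 fell and 15 did not pass, with a median of -0.05. The 2 are 11.8% of the list, where 7.41% of all genes passed. The fall was Apcdd1. The rise was Cdx1, a homeobox gene of gut and embryo, at 1.52-fold (adjusted p = 0.0407, or 0.0726 with the replicate block). Its signals were -4.36, -4.54 and -4.35 in the knockdown, against -5.16, -5.06 and -4.83 in the control. It was above background on all 3 knockdown and 2 control arrays, and with normexp its log2 fold change was 0.14. Without any 1 array, neither passed. The widely used targets Ccnd1 (-0.15, 95% interval -0.42 to 0.11) and Myc (-0.55 to 0.55) did not pass either. 4 of the 17 are Axin2, Lef1, Tcf7 and Znrf3, given above. Apcdd1, Nkd1 and Notum are also on the list of other pathway genes, so the counts and medians of the lists are not independent.

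**Figure D5:**
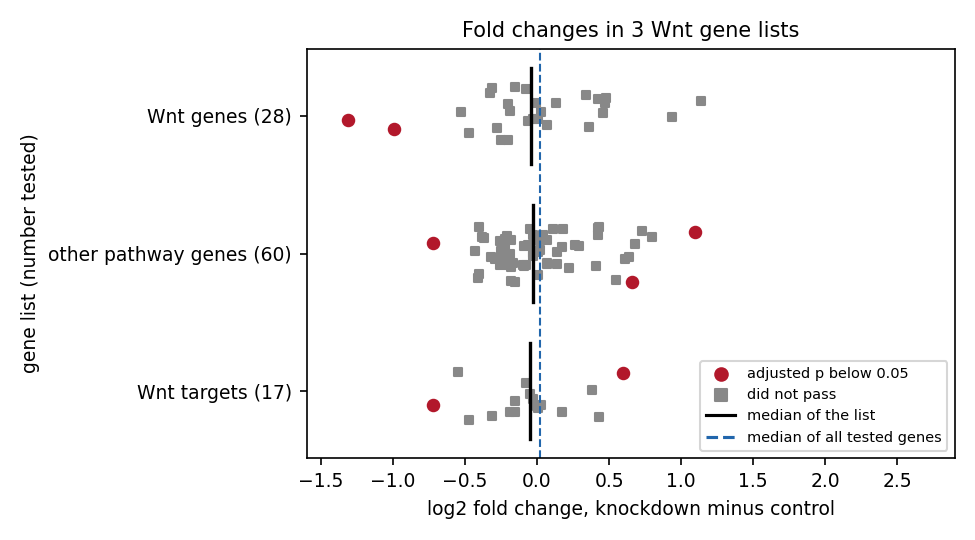
Log2 fold changes (horizontal axis) of the tested genes of 3 lists, 1 point a gene, with list medians (black) and the median of all tested genes (dashed). All 3 medians, -0.04, -0.03 and -0.05, lie within 0.1 of that of all genes, and the genes past the threshold fall on both sides of 0 in the lists of other pathway genes and targets. The list of targets shares genes with each of the other lists.

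Markers of cell identity were read from the same arrays. Of 10 stem and glioma markers 8 were above background on all arrays, among them Sox2 and Nes, but Olig2 and Fut4 on none. The mean signal of the 8 ran from 0.79 to 0.94 on the knockdown arrays and from 0.91 to 1.23 on the control arrays, and 1 of the 8 passed, Pdgfra, which fell (log2 fold change -0.90 ± 0.12, SE; limma adjusted p = 0.0135). Nes (-0.64), Sox2 (-0.34), Egfr (-0.36) and Msi1 (-0.26) had knockdown signals below all control signals and Prom1 (1.03) above them, none of them past the threshold, and Cd44 (-0.31) and Fabp7 (0.06) overlapped. Over all tested genes the groups did not overlap for 32.4%, 17.8% higher and 14.6% lower, and 7.41% passed. These shares apply to each marker list here, and the lists are small. Of 6 tested astrocyte markers out of 7, 2 rose, S100b and Slc1a3 (1.01 and 0.86), and their mean signal ran from -2.42 to -1.62 in the knockdown and from -2.61 to -2.16 in the control. Of 4 tested oligodendrocyte markers out of 7, 2 rose, Mbp and Cnp (1.01 and 0.48), with means of -1.76 to -1.67 in the knockdown and -2.10 to -1.89 in the control, and Sox10 and Myrf were on no array. Tmem119 (1.17) was the 1 that passed among 3 tested immune markers out of 7, while Aif1, Cx3cr1, P2ry12 and Ptprc were above background on no array. The means of these 3 ran from 1.15 to 1.18 in the knockdown and from 0.65 to 1.07 in the control. Of the neuronal (4 of 7 tested), endothelial (2 of 6) and fibroblast and mural markers (4 of 6), 0 passed in limma, with 1, Dcn, at an unadjusted p below 0.05, which passed in the blocked fit (adjusted p = 0.0375). In that fit Slc1a3 (0.0652) and Cnp (0.0845) did not pass. The means of the fibroblast and mural markers ran from 2.03 to 2.13 in the knockdown and from 1.65 to 1.83 in the control. The part of these markers in the Wnt2 and Dkk2 results was not tested, and in RNA of a whole culture fewer cells of a type and less RNA per cell cannot be told apart.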

How the data were processed

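RNA of 3 knockdown and 3 control samples was hybridised to one-colour arrays. The scanner files hold spot intensity values that Agilent Feature Extraction 11.0.1.1 had background-corrected, per the file headers. The deposited table of log2 values differed from log2 of these by 1 constant per array (tolerance 0.01), so its scale is known; its column medians ran from -4.46 to -4.21. Outlier spots were left out, replicate spots were averaged on the log2 scale, and each array's 75th percentile was subtracted. Of 56605 probes, 12 were lost to outlier flags, and 58.3% were named through a RefSeq table of GRCm38.p6, used for names and start-site windows only, since the array design cites an older build. A gene's probe with the highest mean was used. limma 3.58.1 (R 4.3.3; lmFit, eBayes, two-sided) compared the groups with no block for the pairs, with Benjamini-Hochberg adjustment over 14151 genes. For a probe below background on all arrays of 1 group, the bound set the other group's mean against the higher of the probe's own signal and the lowest signal above background on each array. The code was tested on simulated data. Python 3.11.15 with pandas 2.3.3 and matplotlib 3.10.9 made tables and plots.

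The pairs come from the shared days in the titles. Deviations of paired arrays from their group means correlated at -0.02, 0.55 and -0.20. The Wnt genes and the lists were chosen with earlier results of these data known. Wnt genes past the threshold, those that cleared background throughout 1 group and nowhere in the other, and those tested with separate groups and a log2 fold change of at least 0.5 in size are given with every array, as are genes past the threshold on the lists of other pathway genes and targets; the values shown by array for Wnt1, Fzd2, Dkk3, Ctnnb1, Axin1, Axin2 and Tcf7 were added after they were seen. Alternatives were other scalings, filters and probe rules, the deposited table, array weights, the block, and leaving out arrays or pairs. Normexp was run on median spot signals, a choice made after seeing the files, and mean spot signals were not used here. The number of arrays limits the precision.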

Additional observations from a re-analysis of the deposited data

How the results depend on the processing

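The count of genes past the threshold was 357 without a filter, 558 with the replicate block and 2559 with array weights, against 1048, and 0 to 840 when single arrays or pairs were left out (0 without pair 3, with 2796 at an unadjusted limma p below 0.05). Of the Wnt genes, 2 passed as reported. 1 passed with quantile normalization (Fzd2), with a percentile taken over the probes detected on every array (Fzd2), with a filter on all 6 arrays (Dkk2) and with the mean of probes (Wnt2), 0 without a filter, and 6 with array weights, where 18.1% of all genes passed (Dkk2, Wnt2, Tcf7, Fzd2, Sfrp4 and Wnt5b); leaving out arrays or pairs gave 0 to 3. Leaving out any 1 control array or knockdown replicate 3 gave 0, with 5 to 10 at an unadjusted p below 0.05. Few of all genes passed in these fits either, 0.0989% to 3.0%. An unadjusted limma p below 0.05 was found there for 2581 to 3353 of the 14151 genes. The other pathway genes past the threshold were 8 with array weights and 0 to 2 with arrays or pairs left out, against 3. Of the targets, 2 passed as reported, 0 with normexp, quantile normalization or no filter, 1 with the other percentile, the deposited table, the filter on all 6 arrays, the mean of probes or the replicate block, and 0 with any array or pair left out, with 2 to 4 at an unadjusted p below 0.05. Ggct stayed between -3.12 and -2.78 and missed the threshold without pair 3 (adjusted p = 0.125). Of the Wnt genes that did not pass, some near 0 changed sign: Apc (0.04 with normexp, 0.01 with the other percentile, 0.03 with array weights), Axin2 (-0.05), Lef1 (-0.06) and Wnt1 (0.02 with array weights). With arrays or pairs left out, Apc ran from -0.24 to 0.22, Axin2 from -0.14 to 0.16, Lef1 from -0.11 to 0.16, Wnt1 from -0.07 to 0.05, Fzd3 from -0.40 to 0.16, Fzd5 from -0.55 to 0.04, Fzd7 from -0.25 to 0.37, Lrp6 from -0.36 to 0.02 and Tcf7l1 from -0.51 to 0.06. Wnt2, Dkk2, Sfrp4, Wnt5b, Fzd2 and Tcf7 kept their direction under each alternative that gave them a value (with the filter on all 6 arrays Wnt2 has none). The replicate block changed the calls of Wnt5b, Dact2, Cdx1, Slc1a3, Cnp and Dcn and no other call named here. The cause of these changes was not tested. Signals near background limit what Wnt2, Dkk3 and Cdx1 can show.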

Other observations

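The Groucho-family genes, which encode co-repressors of Tcf factors and related proteins, were looked at together after their values were seen. All 6 tested were on the list of other pathway genes, and Tle6 alone passed. Tle2 (log2 fold change 0.61, adjusted p = 0.0654), Tle4 (0.42) and Tle5 (0.42) were higher on every knockdown array than on any control array, and Tle3 (-0.40) was lower on every one. Tle1 overlapped (0.01). The same separation held for 32.4% of all genes.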
